A study of Mus musculus with 62 samples.

Results

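The NRF2 and redox defence program was followed through 10 of its genes, each of which had a row among the 19112 gene rows of the table. The cells were of KPC1199-EGFP, a tumour line from mouse pancreas on a C57BL/6 background that expresses EGFP. The genes were picked by name: Nfe2l2, Keap1, Nqo1, Gclc, Gclm, Txnrd1, Srxn1, Slc7a11, Akr1b8 and Prdx1. They were chosen with earlier results of these data known, so contrasts of the 10 with all genes or gene pairs are description only. The cells came from an untreated adherent culture at passage 9, were trypsinised and had their cDNA amplified on a Fluidigm C1 chip. These cells are the cultured control for cells of the line that were injected into mouse pancreas. The deposited table holds 62 libraries, each from 1 cell of the same culture, so there is no treated group, no replicate culture and no p-value. Values are given for the 50 libraries in which ERCC spike-ins, synthetic RNAs added in known amount, took under 20% of all counts. The highest share inside this set was 1.83% and the lowest outside it was 22.3%. Levels are counts per 1000000 gene counts (CPM), and all spreads are between cells of that culture.

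NRF2, the product of Nfe2l2, is a transcription factor that turns on genes of antioxidant and detoxifying defence. Keap1 is its sensor and inhibitor: it presents NRF2 to a CUL3 ubiquitin ligase, and electrophiles or oxidants that modify KEAP1 cysteines let NRF2 accumulate. NRF2 is therefore regulated largely as a protein, and transcript levels do not read its activity. With small MAF proteins it binds antioxidant response elements in its targets, and in pancreatic cancer the program is known for lowering oxidative stress in tumour cells.

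The RefSeq promoter table (build GRCm38.p6) held windows for 9 of the 10 genes, each running from 250 bases before to 50 bases after an annotated start. Gclc had no entry. The core of the antioxidant response element, searched as TGACNNNGC on both strands, occurred in windows of 5 of the 9 genes, Nfe2l2, Srxn1, Gclm, Prdx1 and Txnrd1, and in 1 of the 3 Txnrd1 windows. Counted by window, 5 of 11 held it, and of all 32851 windows 12.4% did. The genes were picked as members of the NRF2 program, whose targets are known by such elements, so nothing is read from that difference. The stretches are shown to give the letters and the place of each match. The Srxn1 stretch is short because its match lies after the start. All 5 read 5′ to 3′ on the strand of the gene, and capitals mark the 9 letters of the match, which lie in reverse complement in Srxn1, Gclm, Prdx1 and Txnrd1. They come from chr2:75704849-75704913 (minus strand) for Nfe2l2, chr2:152105542-152105570 (plus) for Srxn1, chr3:122245377-122245477 (plus) for Gclm, chr4:116685420-116685520 (plus) for Prdx1 and chr10:82859068-82859168 (plus) for Txnrd1.
Nfe2l2: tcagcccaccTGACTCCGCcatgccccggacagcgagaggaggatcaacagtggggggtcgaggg
Srxn1: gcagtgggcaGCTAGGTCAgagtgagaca
Gclm: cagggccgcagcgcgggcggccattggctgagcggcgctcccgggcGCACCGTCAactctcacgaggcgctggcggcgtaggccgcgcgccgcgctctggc
Prdx1: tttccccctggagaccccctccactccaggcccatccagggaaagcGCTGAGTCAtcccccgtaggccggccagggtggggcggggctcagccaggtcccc
Txnrd1: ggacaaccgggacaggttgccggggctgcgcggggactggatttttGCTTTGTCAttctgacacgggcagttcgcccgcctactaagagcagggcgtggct
The Prdx1 match read in its own direction is TGACTCAGC, which also holds the AP-1 motif TGANTCA. That form was in 0.454% of all windows, and TGANTCA in 7.81%. The matches started 240, 134, 133 and 92 bases before the annotated start in Nfe2l2, Gclm, Prdx1 and Txnrd1, and 28 bases after it in Srxn1. Slc7a11, Akr1b8, Nqo1 and Keap1 had no match in these windows, which says nothing of sites elsewhere. The authors' counts were made for mm9, and no count was tied to these positions.

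The 50 libraries held between 2153900 and 12868800 gene counts and between 6832 and 11068 detected genes. At the median depth 1 count equals 0.139 CPM. Of 7 measured epithelial and duct markers 6 were above 0 in at least 50% of the cells, a mark met by 48.6% of all gene rows. Krt8 and Krt18 were in all 50, while Epcam was above 0 in 18 cells with a median of 0 CPM. Of 8 immune markers 5 were at 0 in every cell, while Itgam was above 0 in 23 cells, Cd68 in 10 and Ptprc in 1, and the summed level of the list ran from 0 to 33.5 CPM. Of 8 fibroblast markers 4 were at 0 in every cell and 2, Col1a1 and Acta2, were above 0 in at least 50% of cells, with a summed list level of 0.136 to 104 CPM. Of 6 endothelial markers 5 were at 0 throughout and Egfl7 was above 0 in 20 cells, with a summed level of 0 to 215 CPM. Of 4 measured acinar markers 2 were at 0 throughout, while Prss2 was above 0 in 18 cells and Cela1 in 11, with a summed level of 0 to 97.4 CPM.

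Each of the 10 genes had counts in at least 50% of the 50 cells, a mark met by 48.6% of all gene rows. Nfe2l2, Gclm, Prdx1 and Akr1b8 were above 0 in every cell, which 11.4% of all gene rows were. With detection set at 10 CPM or more the count at the 50% mark was again 10 of 10, against 33.4% of all gene rows. All 10 genes were detected together in 23 cells, 9 of them in 12 cells, and the fewest, 6, in 1 cell. That cell, number 15, had 0 counts for Keap1, Txnrd1, Srxn1 and Nqo1.

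**Figure D1:**
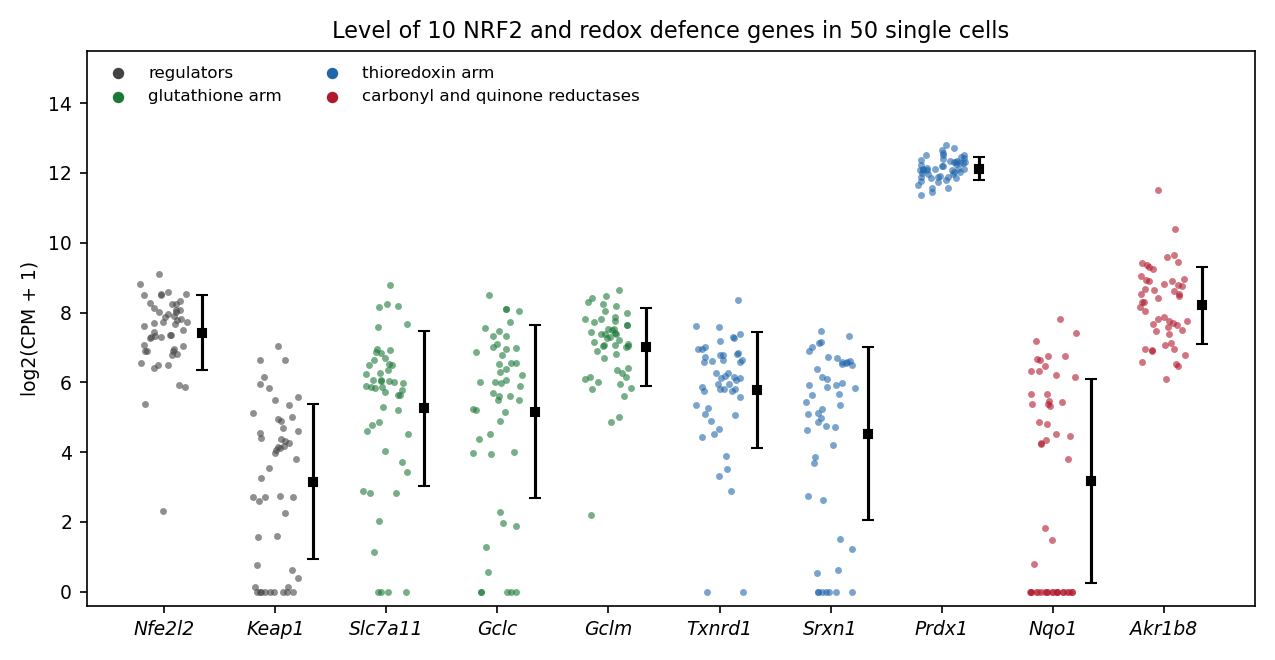
Level of each gene in 50 single cells as log2(CPM + 1); each point is 1 cell, the square is the mean and the bar 1 SD over cells, and colours give the role of the gene. Heights are not corrected for transcript length, so they compare cells within a gene: Prdx1 forms a narrow band at 12.12 ± 0.32, while Nqo1 has 20 cells at 0.

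Of the regulators, Nfe2l2 was found in every cell and Keap1 was not. Nfe2l2 ran from 3.93 CPM through a median of 200.4 to 548 CPM, and on the log2(CPM + 1) scale it averaged 7.43 ± 1.09 (SD, n = 50 cells). A single cell, number 32, held the lowest value, and 42 cells were at 100 CPM or more. Keap1, the inhibitor, ran from 0 through a median of 13.8 to 130 CPM, with a mean log2 level of 3.16 ± 2.23. It was above 0 in 41 of 50 cells (82%, exact 95% interval 68.6 to 91.4), and 14 of those 41 cells had less than 10 CPM.

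In the glutathione arm Slc7a11 encodes the light chain of the cystine importer xCT, and Gclc and Gclm encode the catalytic and modifier subunits of glutamate-cysteine ligase, which performs the first step of glutathione synthesis. Slc7a11 ran from 0 through 58.01 to 441 CPM and was above 0 in 46 of 50 cells (92%, interval 80.8 to 97.8). Gclc ran from 0 through 60.4 to 365 CPM and was above 0 in 45 cells (90%, interval 78.2 to 96.7). The modifier was found more evenly than the catalytic subunit: Gclm ran from 3.56 through 149 to 403 CPM, with no cell at 0. Mean log2 levels were 5.25 ± 2.22 for Slc7a11, 5.15 ± 2.48 for Gclc and 7.01 ± 1.12 for Gclm (SD, n = 50 cells).

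In the thioredoxin arm Prdx1 is a peroxidase that removes hydrogen peroxide, Srxn1 is sulfiredoxin, which restores over-oxidised peroxiredoxins, and Txnrd1 is the cytosolic thioredoxin reductase that feeds electrons from NADPH to thioredoxin. Prdx1 ran from 2656 through 4430 to 7179 CPM, a span of 2.70-fold over the 50 cells. Txnrd1 ran from 0 through 69.3 to 325 CPM and was above 0 in 48 cells (96%, interval 86.3 to 99.5). Srxn1 ran from 0 through 41.1 to 175 CPM and was above 0 in 43 cells (86%, interval 73.3 to 94.2). Prdx1 was thus read in every cell, whereas 7 cells had no count for Srxn1. The medians were 4430 and 41.1 CPM, and at 0 counts loss of a transcript before sequencing and absence cannot be told apart. Both Srxn1 and Txnrd1 were above 0 in 43 cells, Txnrd1 alone in 5 and neither in 2. Txnrd1 was at 0 in only 2 cells, so at most 2 cells could have had Srxn1 without it. The like count for gene pairs in general was not computed.

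Of the reductases, Nqo1 encodes a quinone reductase widely used as a readout of NRF2, and Akr1b8 an aldo-keto reductase that acts on aldehydes. Nqo1 ran from 0 through 18.1 to 225 CPM, and it was above 0 in 30 of 50 cells (60%, interval 45.2 to 73.6), the fewest of the 10 genes. Few cells lay in between, since 20 had no count, 3 had less than 10 CPM and 27 had 10 CPM or more. After each library was thinned to 1000000 gene counts Nqo1 was still above 0 in 30 cells. Thinning only removes counts, so it cannot say why 20 cells were at 0. Of the 30 cells with Nqo1 counts, 29 also had Keap1 counts, as did 12 of the 20 cells without. The like share for gene pairs in general was not computed, and Nqo1 had r = 0.34 with the number of detected genes. Over the 29 cells with both genes above 0, their levels had r = -0.016. Akr1b8 ran from 67.4 through 317 to 2906 CPM, and averaged 8.20 ± 1.09 on the log2 scale. Its highest cell, number 1, was followed by cell 54 at 1346 CPM.

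Order by length was read in CPM per kb of the longest protein-coding transcript in GENCODE M21. Prdx1 was highest at 1990 ± 439 CPM per kb (SD, n = 50 cells), and it was first in 50 of 50 cells. Akr1b8 followed at 296 ± 320 and held the next place in 47 cells. Nfe2l2 came next at 83.8 ± 45.2, ahead of Gclm at 28.4 ± 16.2. Then came Gclc at 23.9 ± 24.7, Nqo1 at 23.4 ± 32.4, Txnrd1 at 22.2 ± 16.7, Srxn1 at 18.6 ± 16.97, Slc7a11 at 8.53 ± 9.65 and Keap1 at 5.90 ± 7.92. Among neighbours in this order, Prdx1 and Akr1b8, and Nfe2l2 and Gclm, differed by more than the larger SD of the pair. The other neighbours did not differ beyond their spread. Nfe2l2 exceeded Keap1 per kb in 49 of 50 cells. The order depends on the isoform length assumed: with the median length of the protein-coding transcripts, Prdx1 stood at 6905 and Gclm at 158 CPM per kb, and Gclm then came before Nfe2l2.

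**Figure D2:**
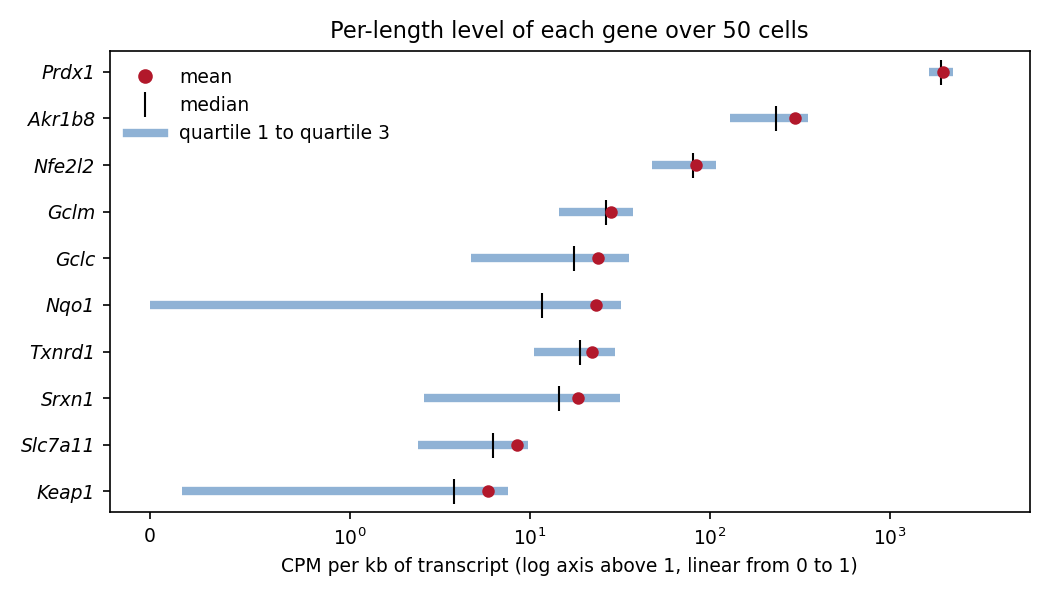
Level per transcript length in CPM per kb (log axis above 1, linear from 0 to 1) for each gene over 50 cells; dots are means, ticks are medians and bars run from quartile 1 to quartile 3. Prdx1 at 1990 and Akr1b8 at 296 CPM per kb lie above the other 8 genes, which range from 5.90 to 83.8.

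Some reads could belong to related genes. Of the 1328 31-base words in the Akr1b8 transcript, 10.5% also occurred in other GENCODE genes, chiefly the paralogs Akr1b10 (7.08%) and Akr1b7 (3.09%). Of its 50 estimated counts 32% were whole within 0.01, so part of its level depends on how reads were split, and it is uncertain. Akr1b10 was above 0 in 42 cells with a median of 17.7 CPM and Akr1b7 in 8 cells. For Prdx1 17.8% of words were shared, mostly with processed pseudogenes such as Gm21399, yet all its counts were whole. Slc7a11 shared 2.59% of its words, and 2.17% of its 46 values above 0 were whole, so its level, spread and correlations are likewise uncertain. For Nfe2l2, Keap1, Gclc, Txnrd1 and Nqo1 no word was shared and every value was whole.

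The genes differed in how much they varied from cell to cell for their level. Variability was the log2 squared coefficient of variation less a trend on mean level, over the 12012 genes above 0 in at least 10 cells. All 10 genes lay above the trend, against 49.3% of all genes tested. The 10 were chosen with earlier results of these data known, so that contrast is description only. Akr1b8 ranked 16 of 12012 (percentile 99.9), and without cell 1 it stood at percentile 97.3. Slc7a11 followed at percentile 94.4 and Gclc at 90.3. Srxn1, at 54.7, lay closest to the trend. Prdx1 stood at 75.7, although its SD of 0.32 was the lowest of the 10 on the log2 scale. With the trend fitted to genes above 0 in at least 25 cells, Prdx1 stood at 63.5.

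The 10 genes moved together only weakly. Of their 45 pairs, 6 had a Pearson r of 0.3 or more over the 50 cells (13.3%), against 4.4% of all pairs among the 9282 genes above 0 in at least 25 cells. The mean r over the 45 pairs was 0.111, against 0.0268 over all pairs. In 12 of the 45 pairs r was below 0, against 43.5% of all gene pairs, and the lowest was -0.25, between Nfe2l2 and Slc7a11. All points share libraries and depth, and these values describe the cells of this culture.

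**Figure D3:**
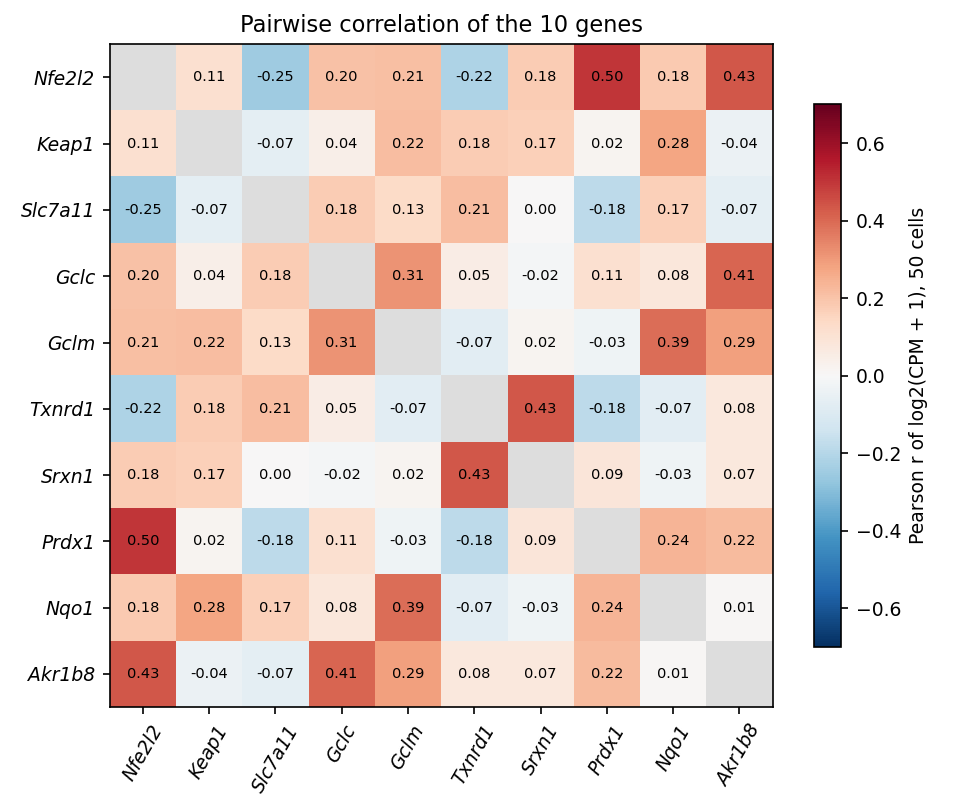
Pearson r of log2(CPM + 1) over 50 cells for each pair of the 10 genes, with red above 0 and blue below. Most cells of the map are pale; Nfe2l2 with Prdx1 at 0.50 is the darkest red and Nfe2l2 with Slc7a11 at -0.25 the darkest blue.

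Nfe2l2 was most alike to Prdx1 among the other 9 genes, with r = 0.50 and rho = 0.43. Without the 2 cells farthest from the median of Nfe2l2 that r was 0.36, and within blocks of 12 label numbers it was 0.50. With Akr1b8 the r of Nfe2l2 was 0.43 and rho 0.40, and r was 0.40 without the 2 farthest cells. Set against all 9281 other genes, Prdx1 ranked 39 and Akr1b8 ranked 91 by r with Nfe2l2. Both values rest in part on cell 32, which was lowest for Nfe2l2 and for Akr1b8: leaving it out gave 0.43 for Prdx1 and 0.35 for Akr1b8. With the other targets Nfe2l2 had r between -0.25 and 0.21, and below 0 for Txnrd1 (-0.22) and Slc7a11. Nfe2l2 and Keap1 had r = 0.11 and rho = -0.08.

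Within the thioredoxin arm Txnrd1 and Srxn1 had r = 0.43 and rho = 0.22. That r was 0.25 without the 2 cells farthest from the median of Txnrd1, which are the 2 cells with no count for either gene, and 0.28 over the 43 cells with both genes above 0. Prdx1 had r = 0.09 with Srxn1 and -0.18 with Txnrd1. Within the glutathione arm Gclc and Gclm, partners in 1 enzyme, had r = 0.31 and rho = 0.17. Leaving out cell 46, which had 0 counts of Gclc and the lowest Gclm value, gave 0.17. Gclc with Akr1b8 had r = 0.41 and rho = 0.37, and Gclm with Nqo1 had r = 0.39 and rho = 0.44. Each of the last 2 pairs stayed above 0.36 with any 1 cell left out.

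**Figure D4:**
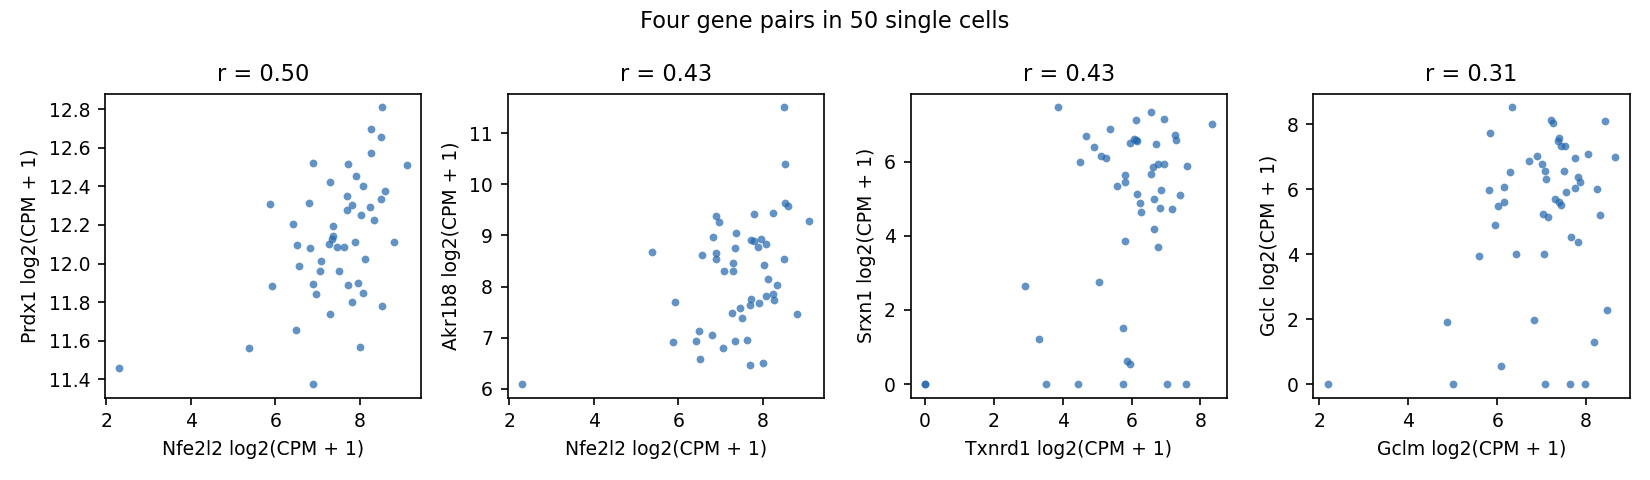
Each point is 1 of 50 cells, with both axes in log2(CPM + 1), for 4 gene pairs. Cell 32 sits alone at the low end of both Nfe2l2 panels, and the cells at 0 for both Txnrd1 and Srxn1 and the lowest cell for Gclm also lie at the edge of their panels.

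Spike-in scaling changed this picture for all genes at once. When counts were scaled to the ERCC sum of each library, which keeps differences in RNA per cell, the mean r of the 45 pairs was 0.385, against 0.258 over all gene pairs, and 30 of the 45 pairs reached 0.3, against 39.4% of all pairs. With number of detected genes regressed out of CPM levels, the mean r was 0.0753, against 0.00317 over all gene pairs. A member score, the mean z value of the 10 genes in a cell, had r = 0.45 and rho = 0.41 with the number of detected genes. It ran against depth: with log2 gene counts r was -0.36 and rho -0.33, and r was -0.34 with detected genes regressed out. For single genes the r with log2 gene counts ran from -0.36 for Gclm to 0.081 for Prdx1, with -0.31 for Gclc and for Akr1b8. A mean over genes carries less noise than 1 gene, so single genes are set against single genes: the 10 had r with detected genes between -0.11 for Akr1b8 and 0.34 for Nqo1, and 7 of them lay above 0.166, the median of the 9282 genes. The part of RNA content, detection and depth in the pair values was not tested beyond these settings. The summed level of the immune markers, which ran from 0 to 33.5 CPM with 5 of 8 at 0 throughout, had r = 0.31 with the score, and its part was not tested.

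Other genes of the pathway came from lists written with earlier results of these data known. Among 10 partners and regulators of NRF2 all 10 were above 0 in at least 50% of cells, a mark met by 48.6% of all gene rows. They included Rbx1 and Cul3, subunits of the ligase that KEAP1 serves, with median levels of 484 and 120 CPM, and Sqstm1, the autophagy receptor p62 that can sequester KEAP1, at 331 CPM. The MAF partners Mafg, Maff and Mafk were above 0 in 36, 40 and 25 cells, and the repressor Bach1 in 30. For this list 4 of 10 genes had r of 0.3 or more with the member score, against 6.58% of all genes above 0 in at least 10 cells. Sqstm1 was highest at 0.45, followed by Nfe2l1 at 0.34.

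Glutathione genes beyond the members were above 0 in at least 50% of cells for 12 of 14. The transferases Gstp1, Gsta4 and Gsto1 had medians of 1305, 1082 and 1016 CPM and were in all 50 cells. Gpx2, a glutathione peroxidase of gut epithelium, was above 0 in 2 cells, and Chac1, which degrades glutathione, in 22. The peroxidase Gpx4, which protects membranes from lipid peroxides, ranged from 534 to 1335 CPM. Slc3a2, the heavy chain that pairs with Slc7a11 in xCT, had a median of 223 CPM and r = 0.22 with Slc7a11.

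Of 11 further thioredoxin genes 9 met the 50% mark. Txn1, the thioredoxin that Txnrd1 reduces, ranged from 532 to 1430 CPM, and Prdx6 and Prdx2 had medians of 649 and 613 CPM. Prdx3, the mitochondrial peroxiredoxin, had r = 0.63 with Nfe2l2, but rho was 0.18 and r was 0.086 without the 2 farthest cells. The stress protein Sesn2 was above 0 in 6 cells.

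NADPH supply genes met the mark in 10 of 10 cases. Median levels were 680 CPM for Idh1, which makes NADPH from isocitrate, 444 for malic enzyme Me1 and 257 for G6pdx, glucose-6-phosphate dehydrogenase. G6pdx had the highest r with Gclm of all 9281 genes, at 0.70. Its rho was 0.41 and r without the 2 farthest cells 0.38. Among 11 genes for superoxide, haem and iron, 10 met the mark. Hmox1, haem oxygenase and a known NRF2 target, was above 0 in 30 cells with a median of 6.94 CPM, while the ferritin genes Ftl1 and Fth1 had medians of 10512 and 2731 CPM.

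Detoxifying enzymes met the mark for 16 of 19 genes, against 48.6% of all gene rows. Of the 18 tested, 7 had r of 0.3 or more with the member score, against 6.58% of all genes above 0 in at least 10 cells. Aldh3a1, an aldehyde dehydrogenase, was the most alike at 0.54 (rho 0.32), followed by the glucuronosyltransferase Ugt1a6a at 0.50. Ugt1a6a belongs to a gene cluster with shared exons, so its count is uncertain. Ugdh, Esd and Akr1a1 had medians of 828, 773 and 659 CPM. Of 19 ATF4 amino acid response genes 15 met the mark, and 1 of the 18 tested reached r of 0.3 with the score. That response is also known to drive Slc7a11, which was not tested here. The r of Slc7a11 with the mean z value of the ATF4 list was 0.43 (rho 0.38), the highest among its values with the 7 redox and amino acid lists. By gene, Slc7a11 had r = 0.51 with Phgdh, 0.45 with Trib3, 0.38 with Asns and 0.32 with Psat1. Other tested genes of the list reached down to -0.16 for Atf3, with -0.091 for Ddit3, 0.057 for Slc7a5 and 0.073 for Atf4 itself. Median r with the score was 0.247 for NRF2 partners, 0.229 for detoxification, 0.190 for glutathione, 0.135 for thioredoxin, 0.112 for superoxide, haem and iron, 0.0565 for ATF4 and 0.0202 for NADPH supply, beside 0.0687 for all 12012 genes. Outside the redox lists, the median was 0.200 for 12 genes of G2 and mitosis and -0.0560 for 12 genes of S phase. Values of this size were thus not limited to redox lists. An r of 0.3 or more was reached by 2 of 13 tested glutathione genes, 2 of 10 for thioredoxin and 2 of 10 for NADPH supply. The counts were 1 of 10 for superoxide, haem and iron, 3 of 12 for G2 and mitosis and 0 of 12 for S phase.

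**Figure D5:**
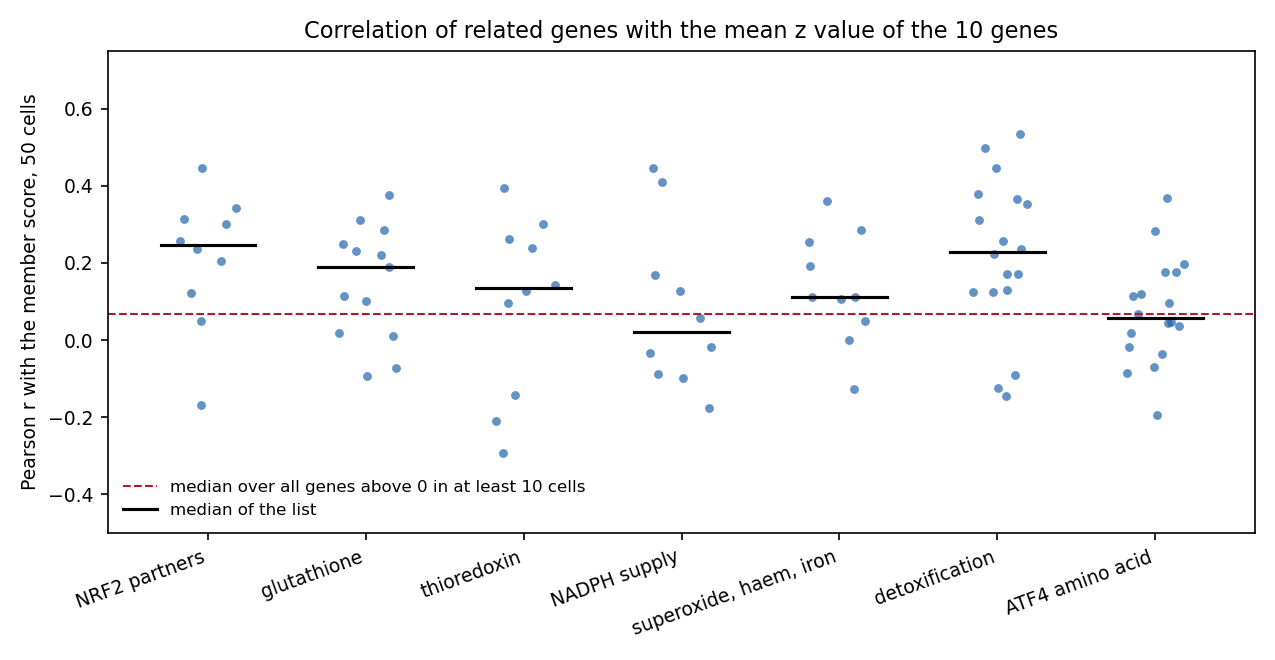
Pearson r over 50 cells between each related gene and the mean z value of the 10 genes, by list; each point is 1 gene, black lines are list medians and the dashed red line is the median of all 12012 genes, 0.0687. Points scatter on both sides of the dashed line in every list, and the highest is Aldh3a1 at 0.54.

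The genes most like the score or each member were ranked among those above 0 in at least 25 cells. Tuba4a, an alpha tubulin, led for the score at r = 0.59 (rho 0.41), then Wbp1 at 0.56 (rho 0.29) and Smdt1, part of the mitochondrial calcium uniporter, at 0.56 (rho 0.30). Fgfr1op2, Acaa1a, Aldh3a1, Slc35e4 and Tarbp2 completed the highest 8, at 0.52 to 0.54. At the low end were Tomm40 at -0.62, Serbp1 at -0.58, Rpl13a at -0.55 and Loxl3 at -0.54.

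For single members, Akr1b8 was most like Fth1, the ferritin heavy chain, at r = 0.53 (rho 0.48), which was 0.53 without the 2 farthest cells. Aldh3a1 came next at 0.52 (rho 0.49). Slc7a11 was most like Psmd10 at 0.61 (rho 0.36), and Slc2a1, the glucose transporter GLUT1, was also among its first 3 at 0.57 (rho 0.34). Prdx1 was most like Sec61g, a subunit of the translocon, at 0.64 (rho 0.64). Nqo1 was most like Dpysl3 at 0.64 (rho 0.60), and Keap1 was most like Abhd5 at 0.56 (rho 0.49). The nearest genes to Txnrd1, Srxn1 and Gclc were Sap30bp at 0.68 (rho 0.40), Pea15a at 0.60 (rho 0.43) and Myo6 at 0.53 (rho 0.41). Nfe2l2 was most like Eif3h, a translation initiation factor subunit, at 0.68, but rho was 0.29 and r was 0.24 without the 2 farthest cells. With 9281 genes ranked over 50 cells, the highest r was 0.53 or more for each of the 10 genes.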

How the data were processed

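The measurements were estimated counts per gene symbol, deposited by the authors as 1 table of 62 columns, each matched to a library by its title. Per the submitters' processing notes they were made with kallisto for mouse build mm9. Its version and annotation: not given in the sources used here. After 65 ERCC rows were set aside, counts were scaled to CPM per library, without rounding, and levels are log2(CPM + 1). For thinning to 1000000 gene counts they were rounded. Each library is 1 cell of 1 culture, so no test was run, and correlations are descriptions. The members and lists were chosen with earlier results of these data known. The spread trend was a lowess fit (fraction 0.3). Blocks were 12 consecutive label numbers, 8 blocks in all. Shares carry exact Clopper-Pearson 95% intervals, which cover counting of cells only. A count of 0 allows up to 3 counts, or 0.233 to 1.39 CPM depending on depth. This floor covers counting error only, since amplified reads without molecular identifiers are not independent molecules. No doublet caller was run. Named genes beyond the members were, per list, the 3 of highest level and 2 of highest r with the score, and the nearest genes to the score (8 highest, 4 lowest) and to each member (3). Slc3a2, Gpx4, Gpx2, Chac1, Sesn2, Hmox1, Asns, Atf4, Bach1 and the MAF genes were named after their values were seen. Alternatives were other pseudocounts, scalings, detection marks and sets of cells. Computations were checked on simulated counts, with Python 3.11.15, pandas 2.3.3, scipy 1.17.1 and statsmodels 0.14.6.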

Additional observations from a re-analysis of the deposited data

Results flagged for a closer look

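Outside the values above stand 12 libraries in which ERCC took at least 20% of counts. They held counts of 8 of the 10 genes above the 3 counts that a 0 allows. That is a floor for counting error only, which does not show that a molecule came from the cell. The share of all gene rows above 3 counts in these libraries was not computed, so nothing about the 10 genes as a set is read from the 8. Prdx1 exceeded 3 counts in 9 of the 12 libraries and Txnrd1 in 7. Nfe2l2 and Gclc each did so in 3 libraries, and Gclm in 2. Keap1, Slc7a11 and Akr1b8 each did so in 1 library. Srxn1 exceeded it in 0 and Nqo1 was listed at 0 in all 12. These libraries held a median of 362304 gene counts, against 7194660 in the other 50. For Keap1, Slc7a11 and Akr1b8 the library above 3 counts was number 43, with Akr1b8 at 131 CPM and Prdx1 at 2788 CPM, and without it 0 of 11 libraries exceeded 3 counts for these 3 genes. Prdx1 reached 14472 CPM in library 13 and Gclm 848 CPM in library 56, above every value in the 50 libraries (7179 and 403 CPM).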

How the results depend on the processing

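No paired analysis was possible because all libraries form 1 group. Of 32 alternative values for the main results, 27 stayed within the mark set for each kind. Marks were 1 SD between cells for a level, the 95% interval of r over 50 cells, and 1.5 times for a count. That interval is for 1 r, so a mean over 45 pairs that lies inside it is not shown to be unchanged. The mark of 1 SD between cells is also wide. The median over genes of the mean log2 level was 4.80 over all 62 libraries, against 5.51, and stayed within it. The exceptions were Prdx1 at 6905 CPM per kb with the median transcript length, and co-variation under spike-in scaling (mean r 0.385, 30 pairs at 0.3 or more) and over all 62 libraries (mean r 0.476, 40 pairs). Over those 62 libraries the mean r of all gene pairs was 0.240 and 43.1% of pairs reached 0.3, so both quantities moved for genes in general. Over the 62 libraries 9 of the 10 genes met the 50% detection mark, Nqo1 being the exception, and under detection at 1 or 10 CPM or thinning all 10 did. Spearman rho gave 4 pairs, and without cell 32, left out after the data were seen, the mean r was 0.0770 with 6 pairs. With any 1 cell left out the pairs numbered 5 to 8. For single genes and pairs, 143 alternative values stayed and 13 moved, with the exact interval as mark for a share of cells. Keap1, for example, was above 0 in 82% of cells but at 10 CPM or more in 54%. All values are limited to cells of 1 culture. At 0 counts, loss of a transcript before sequencing and absence cannot be told apart.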

Other observations

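Ribosomal protein genes, which the lists above do not hold, had mostly negative r with the mean score of the 10 genes, though not with each of them. Of 81 such genes 75 had r below 0 with the member score, with a median of -0.29, beside 0.0655 for all 9282 genes above 0 in at least 25 cells. Their own score had r = -0.48 and rho = -0.43 with the member score, -0.42 without the 2 farthest cells, -0.56 within blocks and -0.42 with detected genes regressed out. By gene, r with the ribosomal score ran from -0.46 for Gclc to 0.0319 for Prdx1, and was -0.0672 for Slc7a11. Values of CPM share a fixed total, and the share of it that ribosomal protein genes take was not computed. The part of that total in this value was not tested.

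Cell cycle genes differed by phase in their r with the member score, though the members did not all share that relation. The 12 genes of G2 and mitosis had a median r of 0.20 with the member score and the 12 of S phase -0.0560. With detected genes regressed out, the r of the member score was 0.0135 with the G2 and mitosis score and -0.29 with the S phase score, against 0.25 and -0.0867 before. By gene, r with the S phase score ran from -0.30 for Akr1b8 (rho -0.33) to 0.32 for Srxn1 (rho 0.25). The r with the G2 and mitosis score ran from -0.14 for Nfe2l2 (rho -0.14) to 0.29 for Txnrd1 (rho 0.32). Signs thus differed among the members for both scores.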
